A study of Mus musculus with 8 samples.

Results

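Genes of sterol synthesis and sterol sensing were followed in dermal fibroblasts of female mice fed high fat (HFD) or normal diet (ND). The genes were a list of 8, Insig1, Srebf2, Hmgcs1, Sqle, Idi1, Fdft1, Cyp51 and Hsd17b7, and all 8 were measured among the 17097 genes of the array table. They have 14 probe sets that name only one of them, and the brightest of each gene over the arrays compared was its main one. The HFD group is 4 arrays and the ND group 3 arrays, and a further array, ND 4, carries a quality control label of excluded with no reason, so its values are given apart. Feeding began at an age of 2 months and lasted 6 months, and all animals were killed on the same day. The strain and the composition of the diets are not given in the sources used here. Cells were freed from dermis with collagenase and sorted as Pdgfra+ CD34+ and negative for CD45, CD117, CD24, CD31 and EpCam, so each array stands for 10000 sorted cells and not for whole skin. Their RNA was amplified over 20 cycles before hybridisation and the specimens were treated as separate mice.

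Mammalian cells make cholesterol from acetyl-CoA through mevalonate, squalene and lanosterol. The pathway is controlled by SREBP2, the protein of Srebf2, which is held in the endoplasmic reticulum by Scap and Insig proteins while sterols are plentiful. When sterols run low the complex moves to the Golgi, SREBP2 is cut by the proteases of Mbtps1 and Mbtps2, and the freed fragment turns on the synthesis enzymes, the LDL receptor gene, Insig1 and Srebf2 itself. Cultured human skin fibroblasts are the cells in which feedback through the LDL receptor was worked out.

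The promoters of the members that passed the test, Insig1 and Hsd17b7, and that of Hmgcs1 are shown to be read beside the expression values. Of the member windows searched, only that of Hmgcs1 had an exact match to the letters used for the sterol regulatory element. The promoters are RefSeq windows of the GRCm38.p6 build, from 250 bases before to 50 after the annotated start, written 5′ to 3′ along the gene. Capitals mark 4 motifs searched on both strands, which are the sterol regulatory element TCACNCCAC, the NF-Y box CCAAT, the Sp1 box GGGCGG and the E-box CACGTG, and no base lay in more than 1 motif. SREBPs bind the sterol regulatory element and E-boxes, and NF-Y and Sp1 are their usual partners.
Insig1, chr5:28071162-28071461, plus strand: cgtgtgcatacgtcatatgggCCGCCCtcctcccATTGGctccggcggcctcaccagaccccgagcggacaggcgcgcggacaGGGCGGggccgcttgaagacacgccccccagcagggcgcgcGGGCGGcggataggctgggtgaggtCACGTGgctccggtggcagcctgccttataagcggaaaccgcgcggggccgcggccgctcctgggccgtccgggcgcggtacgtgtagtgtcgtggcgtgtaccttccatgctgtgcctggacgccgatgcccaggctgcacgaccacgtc
Hsd17b7, chr1:169969156-169969455, minus strand: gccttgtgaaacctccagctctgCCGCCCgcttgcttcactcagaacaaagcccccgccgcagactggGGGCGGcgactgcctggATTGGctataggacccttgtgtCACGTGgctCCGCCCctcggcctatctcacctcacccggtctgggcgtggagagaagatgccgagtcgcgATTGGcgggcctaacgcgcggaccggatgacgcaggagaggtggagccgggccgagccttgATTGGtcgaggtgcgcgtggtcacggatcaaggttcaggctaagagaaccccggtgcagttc
Hmgcs1, chr13:119690101-119690400, plus strand: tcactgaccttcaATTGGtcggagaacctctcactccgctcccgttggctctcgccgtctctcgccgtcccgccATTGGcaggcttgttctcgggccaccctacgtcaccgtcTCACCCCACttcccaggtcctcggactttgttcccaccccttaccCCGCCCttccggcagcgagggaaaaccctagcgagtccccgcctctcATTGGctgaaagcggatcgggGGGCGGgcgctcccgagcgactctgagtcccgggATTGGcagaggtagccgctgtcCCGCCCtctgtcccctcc

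Of the 8 members, 6 had a promoter window (Insig1, Srebf2, Hmgcs1, Idi1, Cyp51 and Hsd17b7). An exact match to the sterol regulatory element was in 1 of these 6 windows, at position -137 of Hmgcs1, while 1.24% of all 32851 windows hold one. All 6 held CCAAT, which 37.4% of all windows hold, and all 6 held GGGCGG, which 35.7% hold. The E-box was in 2 of 6, at position -101 of Insig1 and -143 of Hsd17b7, against 7.15% of all windows. A match is a description of letters. Only exact matches were searched, so a window without one may hold a variant of the motif, and it says nothing of sites elsewhere.

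In HFD fibroblasts 1 of the 8 members fell (Insig1), 1 rose (Hsd17b7) and 6 did not pass the test, which was a limma fit over all genes with an adjusted p under 0.05. The same fit called 5.35% of all genes, 2.62% as higher and 2.73% as lower. It gave an unadjusted p under 0.05 to 22.1% of all genes and to 3 of the 8 members. The arrays of the diets were fully separate in 2 of the 8 members and in 17.9% of all genes. The median log2 difference, HFD minus ND, was -0.14 over the 8 members and 0.02 over all genes. These counts come from few arrays and from amplified RNA, and in sorted populations fewer cells of a type and less RNA per cell cannot be told apart.

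**Figure D1:**
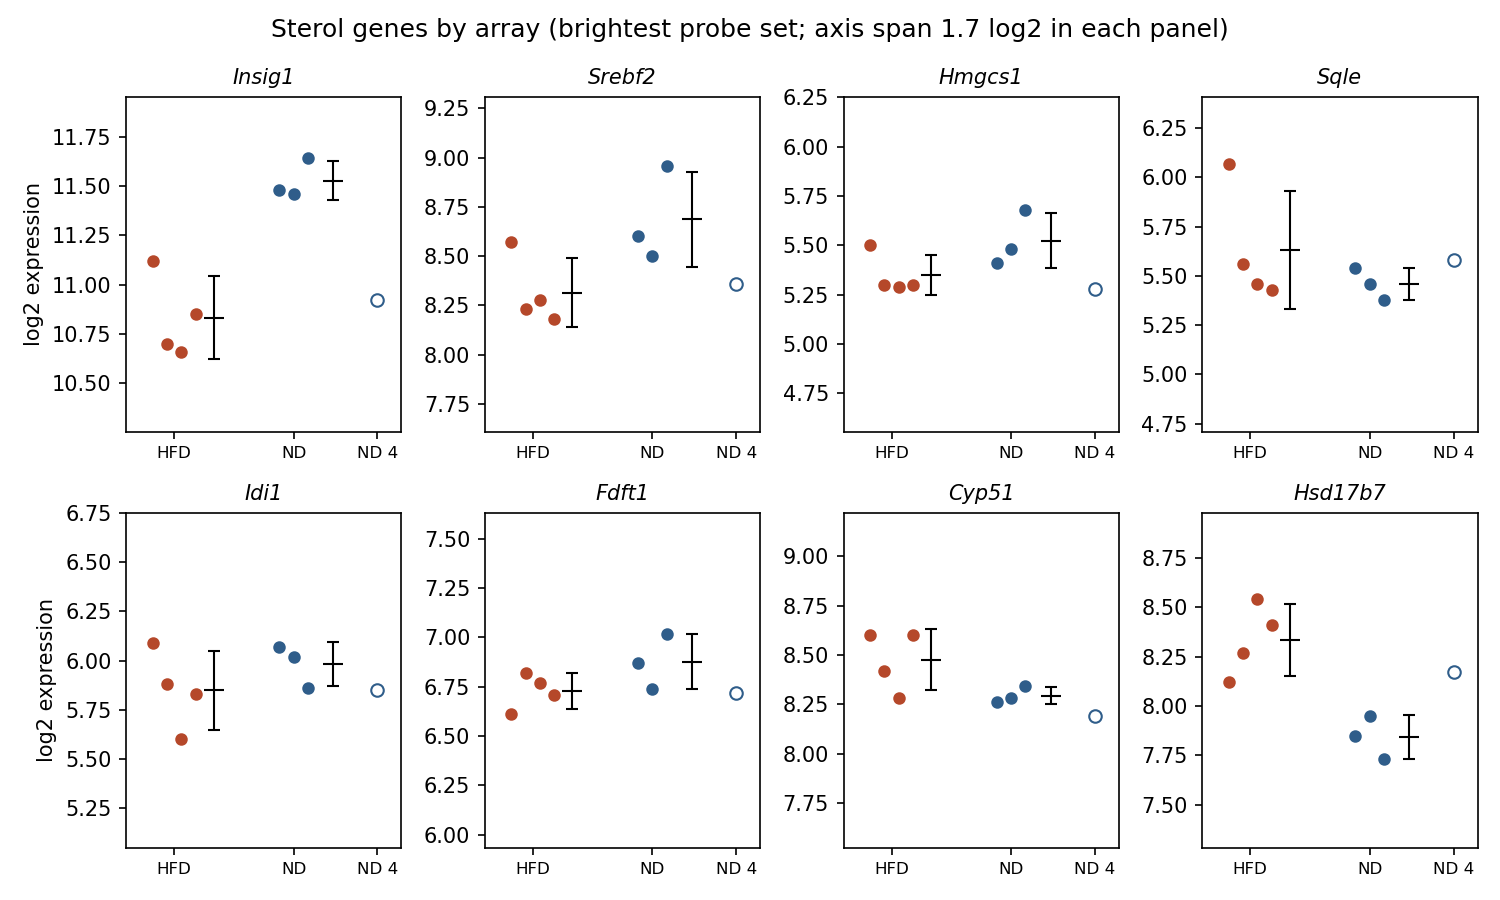
Log2 expression of the main probe set of each gene in the HFD arrays (left, 4 points), the ND arrays (middle, 3 points) and ND 4 (open point), with the mean and SD of each group as a bar. The HFD points of Insig1 lie below and those of Hsd17b7 above every ND point compared, and in the other 6 genes the groups overlap.

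Insig1, the membrane anchor that retains the Scap and SREBP complex, was at 11.12, 10.70, 10.66 and 10.85 log2 in HFD 1 to 4, against 11.48, 11.46 and 11.64 in ND 1 to 3. Every HFD array lay below every ND array compared, and HFD 1 was nearest to them. The mean was 10.83 ± 0.21 (SD, n = 4) in HFD and 11.53 ± 0.10 (SD, n = 3) in ND. Insig1 thus fell by 0.69 on the log2 scale (SE 0.11, 95% interval -0.94 to -0.45, limma adjusted p = 0.0224), which is 1.62-fold lower in HFD. It was a bright gene, with 97.5% of genes at or below its mean level, and it has 1 probe set here. ND 4 was at 10.92, within the HFD range. The adjusted p was 0.0631 without HFD 3, 0.0664 without HFD 4 and 0.0780 without ND 3, with differences of -0.64, -0.70 and -0.64, and 0.170 with ND 4 included, with a difference of -0.54.

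Srebf2, which encodes the transcription factor of the pathway, was at 8.57, 8.23, 8.28 and 8.18 log2 in HFD, against 8.60, 8.50 and 8.96 in ND. HFD 1 lay between the ND arrays while HFD 2 to 4 lay below all of those compared. The difference was -0.37 (SE 0.13, 95% interval -0.67 to -0.08, adjusted p = 0.132) and did not pass, and it was -0.24 without ND 3, the highest array. Its other probe set, dimmer at a mean of 7.20, differed by -0.36 (SE 0.15, unadjusted p = 0.0381), and it too had HFD 1 (7.42) inside the ND range of 7.25 to 7.57. ND 4 was at 8.36 in the main probe set and at 7.43 in the dimmer one.

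Insig2, the paralogue that anchors the same complex, was looked up after its values were seen. Its brightest probe set was at 8.98, 9.28, 9.21 and 9.02 log2 in HFD, against 8.85, 9.02 and 9.00 in ND, a difference of 0.17 (SE 0.10, adjusted p = 0.383). Its 2 other probe sets, little dimmer, differed by 0.43 (SE 0.10) and 0.48 (SE 0.13), and in both every HFD array was above every ND array compared. Their adjusted p was 0.0464 and 0.0700 in a fit of every probe set of the table. The sign was opposite to that of Insig1 in all 3 probe sets, and only 1 of them passed. Scap, the sterol sensor itself, also looked up afterwards, differed by -0.18 (SE 0.10, adjusted p = 0.346).

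Of the enzymes that lead to squalene, none passed. Hmgcs1, which makes HMG-CoA at the entry of the pathway, was at 5.50, 5.30, 5.29 and 5.30 log2 in HFD, against 5.41, 5.48 and 5.68 in ND. HFD 2 to 4 lay within 0.01 of each other and below all ND arrays compared, and HFD 1 lay among them. Its difference was -0.18 (SE 0.08, adjusted p = 0.229), and -0.10 without ND 3, in a probe set below the median gene of 6.77.

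Idi1, which isomerises the isoprene unit, was at 6.09, 5.88, 5.60 and 5.83 log2 in HFD, against 6.07, 6.02 and 5.86 in ND. HFD 1 was the highest array of all and HFD 3 the lowest. The difference was -0.13 (SE 0.11, adjusted p = 0.526), -0.05 without HFD 3 and -0.21 without HFD 1, and the dimmer probe set gave -0.42 (SE 0.22, unadjusted p = 0.0829) with HFD 1 (5.89) and HFD 3 (4.69) again at the extremes. Fdft1, the squalene synthase, was at 6.61, 6.82, 6.77 and 6.71 in HFD, against 6.87, 6.74 and 7.02 in ND, a difference of -0.15 (SE 0.09, adjusted p = 0.383), and -0.08 without ND 3. Here the groups overlapped only through ND 2, and HFD 1 was the lowest array.

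Sqle, the squalene epoxidase and a slow step of the pathway, was at 6.07, 5.56, 5.46 and 5.43 log2 in HFD, against 5.54, 5.46 and 5.38 in ND. HFD 1 stood above all other arrays, and HFD 2 to 4 lay close to the ND arrays. The difference was 0.17 (SE 0.14, 95% interval -0.13 to 0.47, adjusted p = 0.525), and 0.02 without HFD 1. Like Hmgcs1 and Idi1 it was below the median gene.

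Cyp51, the lanosterol demethylase, was at 8.60, 8.42, 8.28 and 8.60 log2 in HFD, against 8.26, 8.28 and 8.34 in ND, a difference of 0.18 (SE 0.10, adjusted p = 0.333). Its probe sets disagreed. The next brightest was at 6.41, 6.61, 6.69 and 6.67 in HFD, against 6.94, 6.79 and 6.94 in ND, a difference of -0.29 (SE 0.09, unadjusted p = 0.0103, adjusted p = 0.105 over all probe sets), and the dimmest differed by -0.04. No direction can therefore be given for Cyp51.

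Hsd17b7, a ketosteroid reductase that takes part in removing methyl groups from the sterol ring, was at 8.12, 8.27, 8.54 and 8.41 log2 in HFD, against 7.85, 7.95 and 7.73 in ND. Every HFD array was above every ND array compared. The mean was 8.33 ± 0.18 (SD, n = 4) in HFD and 7.84 ± 0.11 (SD, n = 3) in ND, so Hsd17b7 rose by 0.49 (SE 0.11, 95% interval 0.24 to 0.74, adjusted p = 0.0394), or 1.41-fold. The dimmest of its probe sets, at 5.95, 6.50, 6.28 and 6.10 in HFD against 5.84, 5.75 and 5.69 in ND, differed by 0.45 (SE 0.12, adjusted p = 0.0671 over all probe sets), also without overlap. The probe set between them in brightness differed by 0.02 (SE 0.10). ND 4 was at 8.17 in the main probe set, inside the HFD range. The adjusted p was 0.0578 to 0.158 when any one of HFD 2, HFD 3, HFD 4, ND 1, ND 2 or ND 3 was left out, with differences of 0.42 to 0.55, and 0.0251 without HFD 1. The call was also lost with ND 4 included (0.41, adjusted p = 0.175), with quantile normalization (0.47, adjusted p = 0.0523) and with the mean of its probe sets (0.32, adjusted p = 0.0571).

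**Figure D2:**
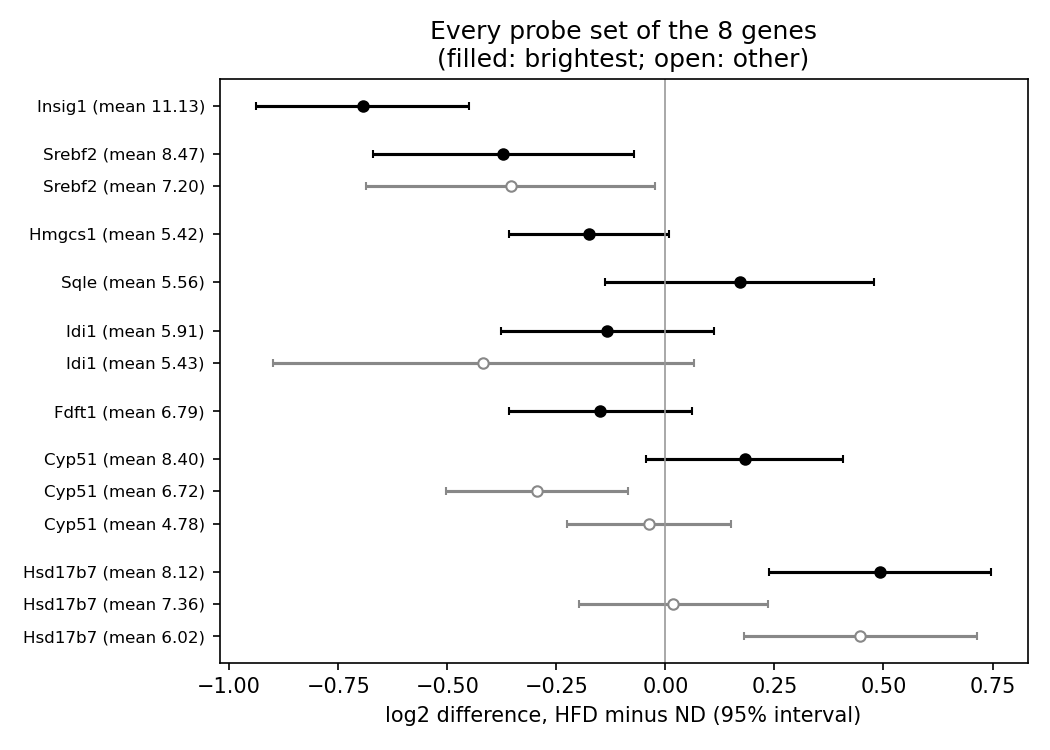
Log2 difference, HFD minus ND, of all 14 probe sets of the 8 genes with its 95% interval, from the fit of every probe set, with the mean log2 level of each in its label. Filled points are the brightest probe set of a gene, open points the others. Both probe sets of Srebf2 lie on the negative side, those of Cyp51 on both sides, and of the 3 for Hsd17b7 the middle one is near 0.

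The members did not move as one block. HFD 1 was the highest HFD array in 6 of the 8 members, all but Fdft1 and Hsd17b7, though in Cyp51 only tied with HFD 4. ND 4 lay nearer the HFD mean than the ND mean in 7 of 8 members and below ND 1 to 3 in 6 of 8, the exceptions being Sqle and Hsd17b7. The counts for HFD 1 and ND 4 were not made over all genes, so nothing particular to the members can be read from them. Over the 7 arrays compared, with each gene set to its own mean, the closest pair was Srebf2 and Hmgcs1 with a root mean square difference of 0.13 log2. Insig1 and Hsd17b7 were the pair farthest apart of all 28 pairs (0.64), which in part restates their opposite calls on the same arrays. The member nearest to Insig1 was Srebf2 (0.20). These distances describe 7 arrays and also reflect how widely each gene varied.

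The remaining enzymes of sterol synthesis showed no call. Of 11 measured from a list of 15, 0 passed in limma, with a median log2 difference of -0.03. An unadjusted p under 0.05 was reached by 22.1% of all genes and by 1 of these 11. That one was Sc5d, a sterol desaturase near the end of the pathway, at 7.34, 7.01, 6.15 and 6.78 log2 in HFD, against 7.72, 7.47 and 7.82 in ND. All HFD arrays were below all ND arrays compared, but HFD was widely spread, and the difference of -0.85 (SE 0.23) had an adjusted p = 0.0593. Its dimmer probe sets differed by -0.29 and -0.49. ND 4 was at 6.98, within the HFD range. Mvd, Ebp and Dhcr7 differed by 0.08, 0.12 and 0.16, with adjusted p-values of 0.461 to 0.583.

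**Figure D3:**
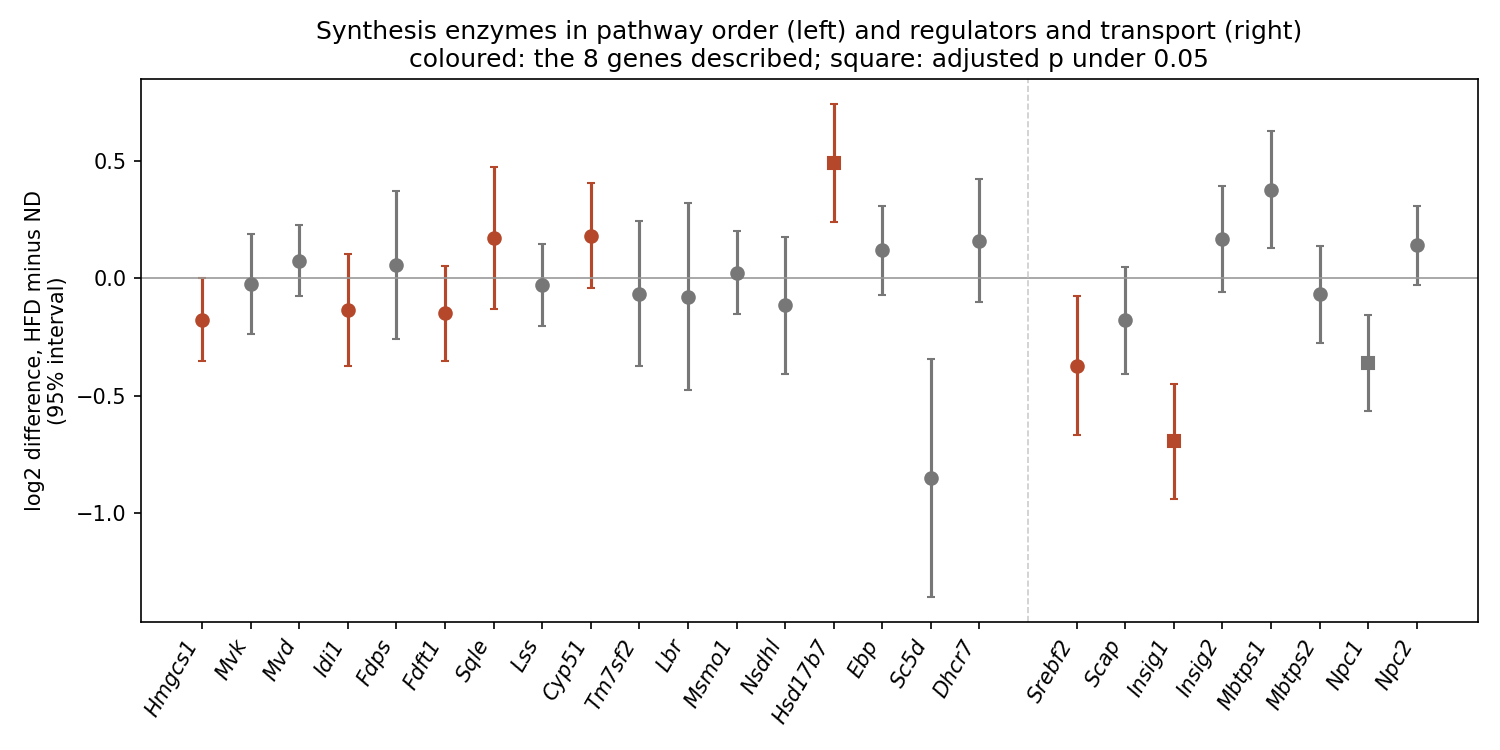
Log2 difference, HFD minus ND, with its 95% interval for synthesis enzymes in the order of the pathway (left) and for regulators and transport genes (right). The 8 genes described are coloured, squares mark an adjusted p under 0.05, and the calls are Hsd17b7, Insig1 and Npc1.

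Of 12 measured genes of sterol sensing and turnover, Npc1 fell and 11 did not pass, with a list median of -0.02. Npc1, which exports cholesterol from lysosomes, was at 9.25, 9.25, 9.25 and 9.18 log2 in HFD, against 9.45, 9.57 and 9.76 in ND, a difference of -0.36 (SE 0.09). Its adjusted p of 0.04996 was just inside the threshold (0.0586 in the fit of every probe set), and ND 4 was at 9.21. Its partner Npc2 differed by 0.14 (adjusted p = 0.314). Mbtps1, a protease that cuts SREBP, differed by 0.38 (SE 0.11, adjusted p = 0.0755) in its brightest probe set and by -0.17 and 0.09 in the others. Erlin2, a membrane protein of the endoplasmic reticulum, differed by 0.29 (adjusted p = 0.112), and Mylip, a ligase for the LDL receptor, by -0.15 (adjusted p = 0.343).

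Among 9 measured genes of oxysterols, LXR and sterol efflux, Apoe rose and 8 did not pass (list median 0.02). Apoe, an apolipoprotein of cholesterol transport, was at 8.40, 8.72, 8.38 and 8.44 log2 in HFD, against 8.10, 7.83 and 7.58 in ND, a difference of 0.65 (SE 0.13, adjusted p = 0.0306). ND 4 was at 8.46, within the HFD range. Lcat, which esterifies cholesterol on lipoproteins, differed by -0.35 (SE 0.09, adjusted p = 0.0584) with no overlap between groups. The sterol hydroxylase Cyp27a1 differed by 0.23 (adjusted p = 0.274), and Osbp, an oxysterol-binding protein, by 0.11 (adjusted p = 0.675). The sterol exporter Abcg1 differed by -0.36 (SE 0.25, adjusted p = 0.439), with HFD 1 at 7.93 and HFD 2 to 4 at 6.77, 6.87 and 6.92, so HFD 1 again stood on its own.

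In the prenyl branch, which draws on the same isoprene units, Fnta rose and 7 of 8 did not pass (list median 0.01). Fnta, the subunit shared by farnesyl and geranylgeranyl transferase, was at 8.88, 8.94, 8.85 and 8.90 log2 in HFD, against 8.67, 8.51 and 8.29 in ND, a difference of 0.40 (SE 0.10, adjusted p = 0.0483). In the fit of every probe set its adjusted p was 0.0576, and ND 4 was at 8.85, within the HFD range. Coq2, of ubiquinone synthesis, differed by 0.52 (adjusted p = 0.0747), Pggt1b by 0.25 in its brighter and -0.19 in its dimmer probe set, and Fntb, the partner subunit of Fnta, by -0.14. Ggps1, which makes geranylgeranyl diphosphate, differed by -0.29 in its brightest probe set and by 0.08 and 0.10 in the others.

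Of 11 measured SREBP targets of fatty acid synthesis, 3 fell (Fads2, -0.70, Scd1, -0.59, and Fads1, -0.56), 1 rose (Mid1ip1, 0.36) and 7 did not pass, with a list median of -0.01. In Fads1 and Fads2 the dimmer probe sets had the same sign with groups that did not overlap, and the second probe set of Scd1 differed by -0.26 with overlap. ND 4 lay within the HFD range in Fads2 (7.68) and Mid1ip1 (10.19). It lay between the groups in Scd1 (9.89) and within the ND range in Fads1 (9.30). Me1, which supplies NADPH, differed by 0.44 (adjusted p = 0.107), and Fasn, Acaca and Acss2 by -0.19, 0.23 and -0.11, with -0.12 in the other probe set of Acaca. Over the 5 lists together, 51 genes of 67 were measured, of which 3 rose, 4 fell and 44 did not pass, and HFD and ND did not overlap in 15 of the 51, beside 5.35% of all genes called and 17.9% without overlap. The differences were positive in 26 and negative in 25. In limma 0 of these 7 calls held without HFD 2, HFD 3, HFD 4, ND 2 or ND 3, where 12 to 15 of the 51 and 2535 to 3652 of all 17097 genes had an unadjusted p under 0.05, and 4 genes passed without ND 1.

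**Figure D4:**
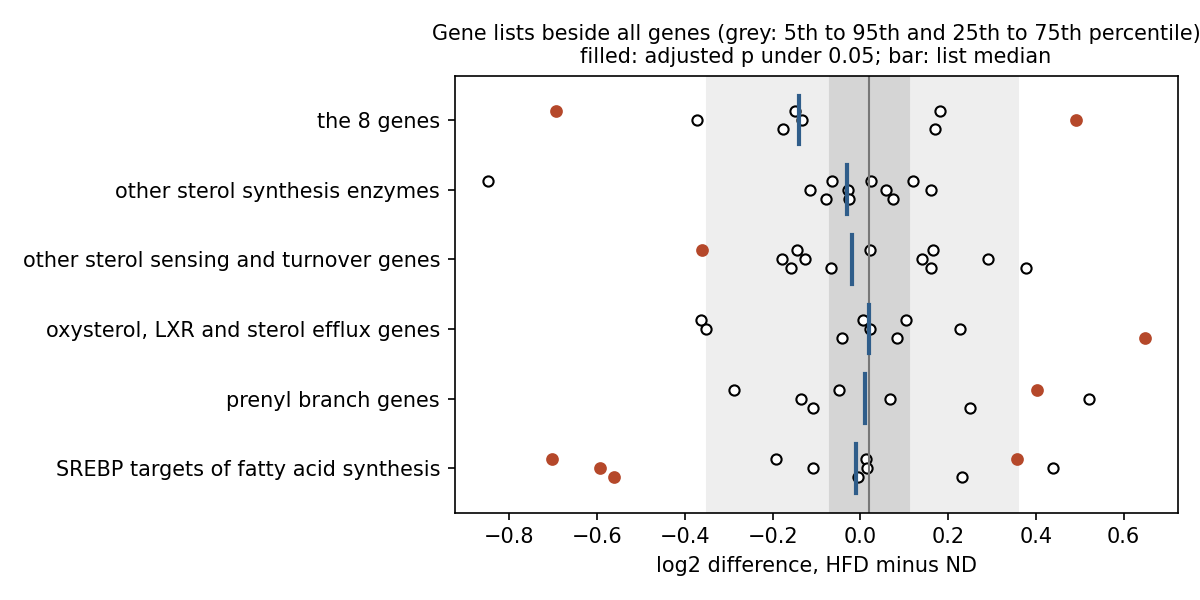
Log2 difference, HFD minus ND, of each measured gene in the 8 genes and the 5 further lists, filled where the adjusted p was under 0.05, with each list's median as a bar. Grey bands show where all 17097 genes lie (-0.35 to 0.36 for the 5th to 95th percentile and -0.07 to 0.11 for the 25th to 75th), and each list spreads to both sides.

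By root mean square difference of profiles over the 7 arrays, the genes most like Insig1 among 8283 brighter named genes were Cmtm3 (0.05), Gpd1l (0.08), Gdap2 (0.09), Ccnh (0.09) and Tram2 (0.09), where the profile of Insig1 itself has a size of 0.37. Cmtm3, for example, was at 9.47, 9.11, 8.98 and 9.15 log2 in HFD, against 9.86, 9.87 and 10.09 in ND, and at 9.29 in ND 4, which was not used to find it. Those most like Hsd17b7, whose profile has a size of 0.28, were Plpp6 and Fbxo30 (0.06 each), Hoxd9 (0.06), Trpm4 (0.07) and Ddx3x (0.07). Plpp6 was at 7.42, 7.43, 7.76 and 7.63 in HFD, against 6.95, 7.14 and 6.93 in ND, and at 7.46 in ND 4. No other member was among either group of 5, but Hmgcs1, Sqle and Idi1 lie below the median gene and so were not candidates.

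Signs of RNA quality and of other cells were read beside these results, and the first separated the diets. For Gapdh and Actb, whose controls at both transcript ends give a sign of RNA quality, the 3′ minus 5′ difference was -0.44 to -0.37 log2 in HFD and -0.33 to -0.18 in ND, without overlap, and -0.37 in ND 4. With it as a covariate, Insig1 differed by -0.55 (SE 0.20) and Hsd17b7 by 0.38 (SE 0.21), both with an adjusted p = 0.999, and Srebf2 by 0.06. The mean of 18 keratinocyte markers was 6.34 to 7.44 log2 in HFD and 6.30 to 6.68 in ND. The differences were positive in 17 of 18 markers, with a list median of 0.29, 0 passing as higher and 1 passing as lower (Jup, -0.42). The largest were those of Perp (1.55, SE 0.57), Dsp (1.41, SE 0.61) and Krt1 (1.14, SE 0.47), with limma unadjusted p-values of 0.0212, 0.0421 and 0.0358. HFD 1, which had the highest Insig1 of the HFD arrays, had the lowest keratinocyte mean of them, and ND 4 was at 6.98. Insig1 differed little between some of the other arrays. It was 10.70 in HFD 2, which had the highest keratinocyte mean (7.44), and 10.66 in HFD 3. In ND 2, with the lowest keratinocyte mean of the ND arrays compared (6.30), it was 11.46, beside 11.48 in ND 1. Whether Insig1 follows the keratinocyte mean over arrays was not tested. With the keratinocyte mean as a covariate Insig1 differed by -0.54 (SE 0.10, adjusted p = 0.0806) and Hsd17b7 by 0.44 (SE 0.14, adjusted p = 0.165).

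Markers of lipid-rich neighbours of the dermis were read because such cells make sterols and fat. The mean of 8 sebocyte markers was 6.93 to 7.14 log2 in HFD and 6.82 to 6.96 in ND, and 5 of the 8, among them Far2, Krt79, Elovl3 and Mc5r, were below the median gene. Far2 passed as higher (0.38) while its other probe set differed by 0.03, and Krt79 differed by 0.61 (adjusted p = 0.249). The mean of 7 adipocyte markers was 6.25 to 6.39 in HFD and 6.18 to 6.36 in ND with none past the threshold in limma and none at an unadjusted p under 0.05, and Adipoq was at 4.40 in HFD and 4.41 in ND. None of 10 immune or 6 endothelial markers passed in limma, and none had an unadjusted p under 0.05. In the same fit 22.1% of all genes had one. Of 10 fibroblast markers Lum and Fbln1 passed as lower. The next brightest probe set of Fbln1 differed by 0.01 with overlap, and its dimmest by -0.24 without overlap. Cd34 was at 12.10 in HFD and 12.08 in ND. Pdgfra, a gene of the sort, was dim at 6.27 in HFD and 5.92 in ND, a difference of 0.34 (SE 0.11, adjusted p = 0.103). Its HFD arrays all lay above the ND arrays compared, though HFD 3 (6.02) only just above ND 2 (6.01). Of the 10 fibroblast markers, the diets were fully separate in 1 as higher and 4 as lower, beside 17.9% of all genes. The 3′ minus 5′ value separated the diets, so with these arrays RNA quality and diet cannot be told apart by that covariate. What part other cells or RNA quality have in the differences of Insig1 and Hsd17b7 was not tested beyond the covariate values given.

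**Figure D5:**
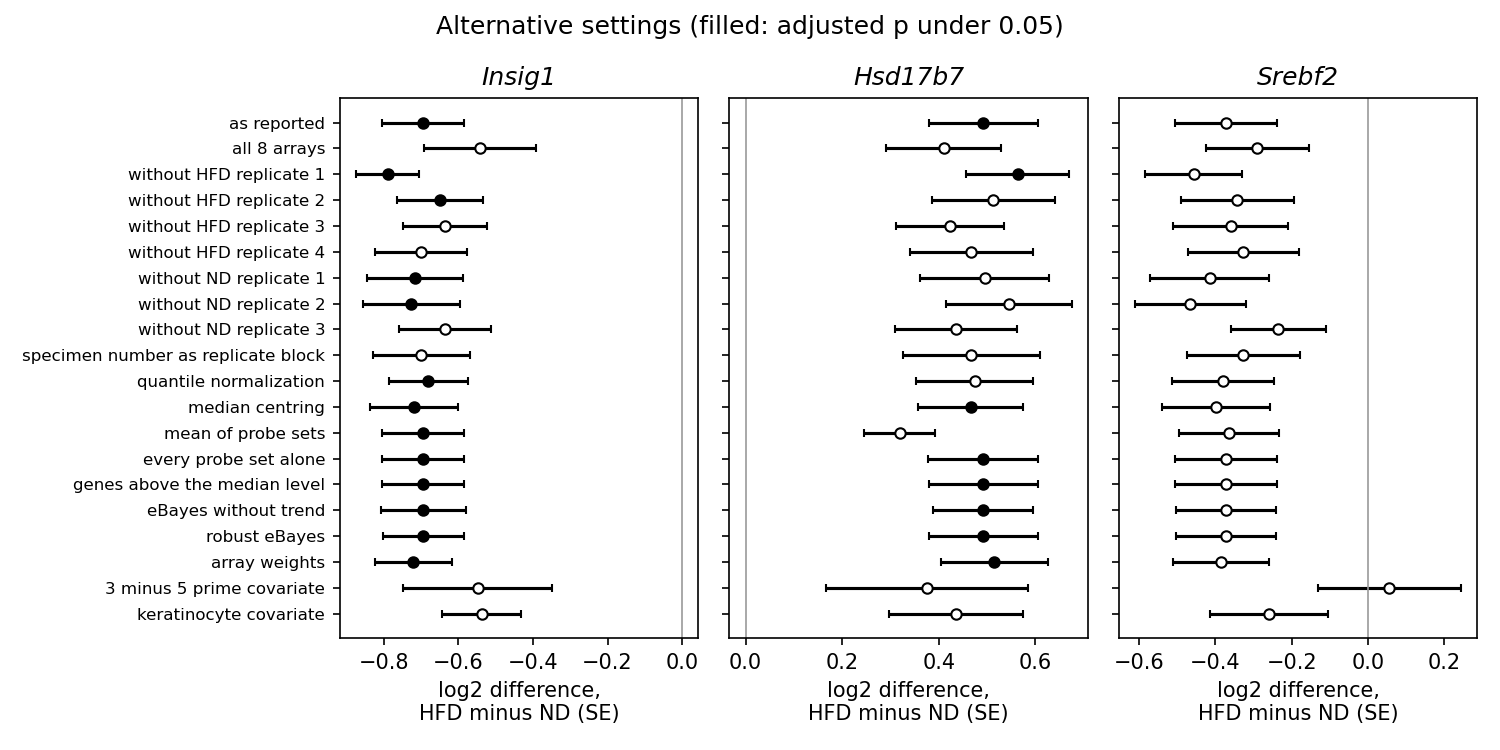
Log2 difference, HFD minus ND, with its standard error for Insig1, Hsd17b7 and Srebf2 as reported and under each alternative setting, filled where the adjusted p was under 0.05. Insig1 stays below 0 (-0.79 to -0.54) and Hsd17b7 above 0 (0.32 to 0.56) in all 19 alternatives, while Srebf2 changes sign with the 3′ minus 5′ covariate (0.06).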

How the data were processed

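The authors deposited log2 values, 3.56 to 13.5, for 45141 probe sets on 8 arrays, made with RMA and the affy package per the submitters' processing notes, whose versions are not given in the sources used here. Quartiles differed by at most 0.04 between arrays, so no scaling was added and a change in total RNA would not show. No detection calls were used, and no pair of arrays was a duplicate (SD of the difference 0.165 or more). The platform annotation gave names (28898 with 1 symbol, 551 with several, 15588 unnamed, besides 104 controls), with symbols updated by Entrez identifier for 28689 through a GRCm38.p6 table used for names only, which gave 17097 genes.

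HFD 1 to 4 were compared with ND 1 to 3 in limma 3.58.1 (R 4.3.3) with lmFit and eBayes with a trend (10.3 total degrees of freedom), with Benjamini-Hochberg adjustment across every gene and a threshold of 0.05. P-values of other probe sets come from the same fit over every probe set except controls. The members, lists and promoter motifs were chosen with earlier results of these data known. All members, every gene of the 5 pathway lists past the threshold and up to 4 others per list by smallest p were named, with the 5 profiles nearest to Insig1 and to Hsd17b7. Insig2, Scap and the single markers were picked with their values known. The fit was checked on simulated data with independent noise in each gene and no shared array effects. That check says nothing of how the calls depend on arrays or covariates. Figures were drawn with matplotlib 3.10.9. Alternatives were other arrays, scalings, probe set rules, variance models, covariates and thresholds, and the specimen number as a block.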

Additional observations from a re-analysis of the deposited data

Results flagged for a closer look

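Some values stood apart when each of the 14 probe sets of the 8 genes was looked at within the 4 HFD arrays, where chance marks about 1 in 20 such groups. Hmgcs1 was at 5.50 in HFD 1 and 5.29 to 5.30 in HFD 2 to 4, a gap of 0.952 of the range. A dimmer probe set of Hsd17b7 was at 7.48 in HFD 1 and 7.32 to 7.34 in HFD 2 to 4, a gap of 0.875 of the range. In ND 4, which took no part in the comparison, Hsd17b7 was at 8.17, above the 7.73 to 7.95 of ND 1 to 3, and Sqle was at 5.58, above their 5.38 to 5.54.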

How the results depend on the processing

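The number of genes past the threshold depended on the arrays used. Of the counts of all genes, of the 8 members and of the 51 other pathway genes (914, 2 and 7 as reported), leaving out 1 array at a time gave 6 to 1072, 0 to 2 and 0 to 7, with 0 members without HFD 3, HFD 4 or ND 3. With ND 4 included they were 6, 0 and 0, with the 3′ minus 5′ covariate 0, 0 and 0 in limma (605, 1 and 2 at an unadjusted p under 0.05), and with the keratinocyte covariate 24, 0 and 0 (2819, 4 and 13). The mean of probe sets gave 400, 1 and 3, quantile normalization 1 member, genes above the median level 1387 genes and 11 pathway genes, a threshold of 0.1 gave 1947 and 11, and one of 0.01 gave 5, 0 and 0. With the specimen number as a replicate block, which also takes out HFD 4, they were 1, 0 and 0 (2516, 2 and 13), with Insig1 at -0.70 (adjusted p = 0.173). Deviations of arrays with the same number correlated at -0.29 to -0.05, and 0 of 3 HFD arrays correlated best with its own number, so the numbers were not taken as pairs. Insig1 kept its sign in all 19 alternatives and its call in 12, and Hsd17b7 its sign in all 19 and its call in 7. Srebf2, Hmgcs1 and Fdft1 changed sign with the 3′ minus 5′ covariate (0.056, 0.023 and 0.035), which separates the diets, and Cyp51 with the mean of probe sets (-0.05), because its probe sets disagree. The cause of the other shifts was not tested. Sqle and Idi1 kept their sign in all 18 alternatives run without a call, and with Hmgcs1 have no value among genes above the median level. These 3 genes lie below the median gene, and no detection calls were used to set their signal against background.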
